A study of Mus musculus with 5 samples.

Results

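Vascular endothelial growth factor (VEGF) ligands and their receptors were described in single-cell RNA-Seq of the mouse growth plate, taken as the 10 genes Vegfa, Vegfb, Vegfc, Vegfd, Pgf, Flt1, Kdr, Flt4, Nrp1 and Nrp2. They were chosen by name from 29818 gene symbols listed in any library, and all 10 were listed in every library. The study asked what activated TRPV4, a calcium-permeable channel, does to transcripts of growth plate cells. Cells came from the proximal tibia and distal femur of 5 C57BL/6J littermates, 2 WT pups (pups 1 and 2) and 3 mutant pups (pups 3, 4 and 5). The mutants were heterozygous for a conditional Trpv4 p.R594H knock-in allele induced by Col2a1-Cre, which is active in chondrocytes from before birth, so vessel and blood cells of the mutants are not expected to carry the induced allele. The sample labels give the age as postnatal day 5 and the series description as postnatal day 3. The pup was the replicate throughout.

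VEGFA is a secreted growth factor that binds the receptor tyrosine kinases VEGFR1 (Flt1) and VEGFR2 (Kdr). VEGFR2 carries most of the signal that makes endothelial cells divide and migrate, and VEGFR1 binds VEGFA tightly but signals weakly, so that it can act as a decoy. VEGFB and placental growth factor (Pgf) bind VEGFR1, whereas VEGFC and VEGFD bind VEGFR3 (Flt4), the receptor best known from lymphatic vessels. Neuropilins 1 and 2 (Nrp1, Nrp2) are co-receptors that also bind class 3 semaphorins. Growth plate cartilage has no vessels, and VEGFA made by hypertrophic chondrocytes is known to draw vessels, osteoclasts and osteoblasts toward the cartilage as it is replaced by bone.

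The members lie on 8 chromosomes, with Flt1 and Kdr both on chromosome 5 and Vegfc and Nrp1 both on chromosome 8. In GENCODE vM21 on GRCm38, Vegfa spans chr17:46016993-46032369 on the minus strand, Kdr chr5:75932827-75978458 on the minus strand, Flt1 chr5:147561604-147726011 on the minus strand and Flt4 chr11:49609263-49652739 on the plus strand. The bases just before the gene start of Vegfa and of its receptors Flt1 and Kdr are shown because these 3 genes carry most of the results. The sequences are from RefSeq (GRCm38.p6), cut so that none lies inside the GENCODE gene, 5′ to 3′ on the gene's strand.
Vegfa, chr17:46032378-46032627, minus strand: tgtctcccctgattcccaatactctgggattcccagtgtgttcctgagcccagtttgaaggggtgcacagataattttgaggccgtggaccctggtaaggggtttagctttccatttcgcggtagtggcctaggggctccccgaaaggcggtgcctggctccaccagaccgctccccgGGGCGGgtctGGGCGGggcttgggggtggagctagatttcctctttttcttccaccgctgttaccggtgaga
Flt1, chr5:147726012-147726261, minus strand: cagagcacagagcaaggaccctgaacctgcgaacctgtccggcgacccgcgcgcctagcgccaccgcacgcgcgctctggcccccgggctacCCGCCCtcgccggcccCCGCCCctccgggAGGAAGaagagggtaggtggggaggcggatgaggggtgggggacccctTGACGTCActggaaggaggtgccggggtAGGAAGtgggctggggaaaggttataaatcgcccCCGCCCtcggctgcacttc
Kdr, chr5:75978459-75978705, minus strand: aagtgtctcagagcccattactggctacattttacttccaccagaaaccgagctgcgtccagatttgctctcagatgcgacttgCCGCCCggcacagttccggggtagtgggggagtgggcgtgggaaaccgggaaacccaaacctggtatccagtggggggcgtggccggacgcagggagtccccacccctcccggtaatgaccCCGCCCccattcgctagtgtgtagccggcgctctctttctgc
Capitals mark, on either strand, matches to the GC box GGGCGG, the ETS core AGGAAG and the cAMP response element TGACGTCA. The hypoxia response core ACGTG was also searched. Flt1 held 3 GC boxes, 2 ETS cores and 1 cAMP response element, whereas Vegfa and Kdr each held 2 GC boxes and none of the other motifs. Among the 250 bases before each of 32851 RefSeq starts, a GC box was present in 32.7%, an ETS core in 29.5%, the hypoxia response core in 16.6% and the cAMP response element in 1.55%. A match is a description of the letters, and no match says only that these letters are not in this window.

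After filtering, 82516 cells remained, with median UMIs (unique molecular identifiers, each counting 1 captured RNA molecule) of 9261 and 8521 per cell in the WT pups and 6657, 6000 and 7016 in the mutant pups. Xist, the X-inactivation RNA, was detected in 89.8% and 88.4% of the cells of pups 3 and 4 and in at most 0.174% elsewhere. Ddx3y, a Y-linked gene, was detected in 67.6%, 70.1% and 66.3% of the cells of pups 1, 2 and 5. In pups 3 and 4 it was in 0.758% and 0.492%. By these genes pups 3 and 4 were female and the others male, so sex was partly confounded with genotype. The main differences between genotypes are therefore also given for pups 1, 2 and 5. That setting leaves pup 5 as the only mutant, so the spread among mutants does not enter those fits. The p.R594H change itself cannot be seen in UMI counts, and Trpv4 levels overlapped between genotypes (102 and 160 CPM, counts per 1000000 UMIs, in WT and 90.3 to 175 in mutants). Any pair of libraries shared few cell barcodes, 7 at most. Cell classes were set by cuts on marker genes, none of them a member, and they stand for a likeness to those markers. There were 47579 chondrocytes, among them 754 Col10a1-high (hypertrophic-like) and 23622 Ucma-high (resting-like) cells, and 489 endothelial cells, and 669 cells that met the rules of more than 1 class were set aside. Of the endothelial cells, 456 had at least 6 of the 10 endothelial markers. In them Pecam1 was at 2432 to 2938 and Cdh5 at 1478 to 2006 CPM. Of other vessel-wall and immune cells, 8 pericyte markers together took 0.00541% to 0.0105% of their UMIs (0.00202% to 0.00461% in chondrocytes), with Higd1b at 0 in every pup. The 9 macrophage markers took 0.000205% to 0.00231%, with C1qa, C1qb and Fcgr3 at 0. Col2a1 was found in at least 95.1% of the endothelial cells, at 1.49% to 2.01% of its chondrocyte level. RNA set free by broken cells can give such UMIs in any cell. An order of levels between classes covers the 11 classes with at least 20 cells in every pup, unless another class is named. Levels are CPM over all UMIs of a class in a pup, from 3′ tags that do not separate isoforms such as soluble Flt1, and they are compared between classes and pups, not between genes.

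Vegfa was found in every chondrocyte class, and its mean level was highest in Col10a1-high cells, at 188, 194, 217, 228 and 287 CPM in pups 1 to 5. The mean over the 5 pups was 223 ± 39.6 (SD) in Col10a1-high, 188 ± 18.4 in Ucma-high, 178 ± 32.3 in Prg4-high (articular-like), 158 ± 25.1 in Ihh-positive (prehypertrophic-like) and 136 ± 11.8 in cycling chondrocytes. Perichondrial cells had 125 ± 7.61, tendon cells 119 ± 14.4, macrophages 118 ± 58.9, pericytes 81.7 ± 8.27 and endothelial cells 38.6 ± 5.34. Neighbours in this order overlapped in their pup ranges except pericytes and endothelial cells, and every pup had more Vegfa in pericytes than in endothelial cells (exact sign-flip permutation test, 2-sided, p = 0.0625, the smallest that 5 pups allow, adjusted p = 0.26 over the 100 neighbouring pairs of the 10 members). Osteoblasts, with at least 20 cells in 4 pups only, had 97.1 to 179 CPM in those pups. With all pups summed, some classes with fewer cells lay outside this range of means. Mast cells were at 315 (271 to 364), osteoclasts at 284 (240 to 335) and Schwann cells at 26.2 (15.3 to 42.0). The parentheses give exact 95% Poisson intervals, which cover counting error only. In pups 1 to 5, mast cells had 82.2, 416, 222, 71.5 and 449 CPM and osteoclasts 198, 0, 198, 362 and 511. Schwann cells had 63.7, 24.1, 13.4, 46.7 and 63.4. The pups were thus uneven, and several lay inside the range of means.

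**Figure D1:**
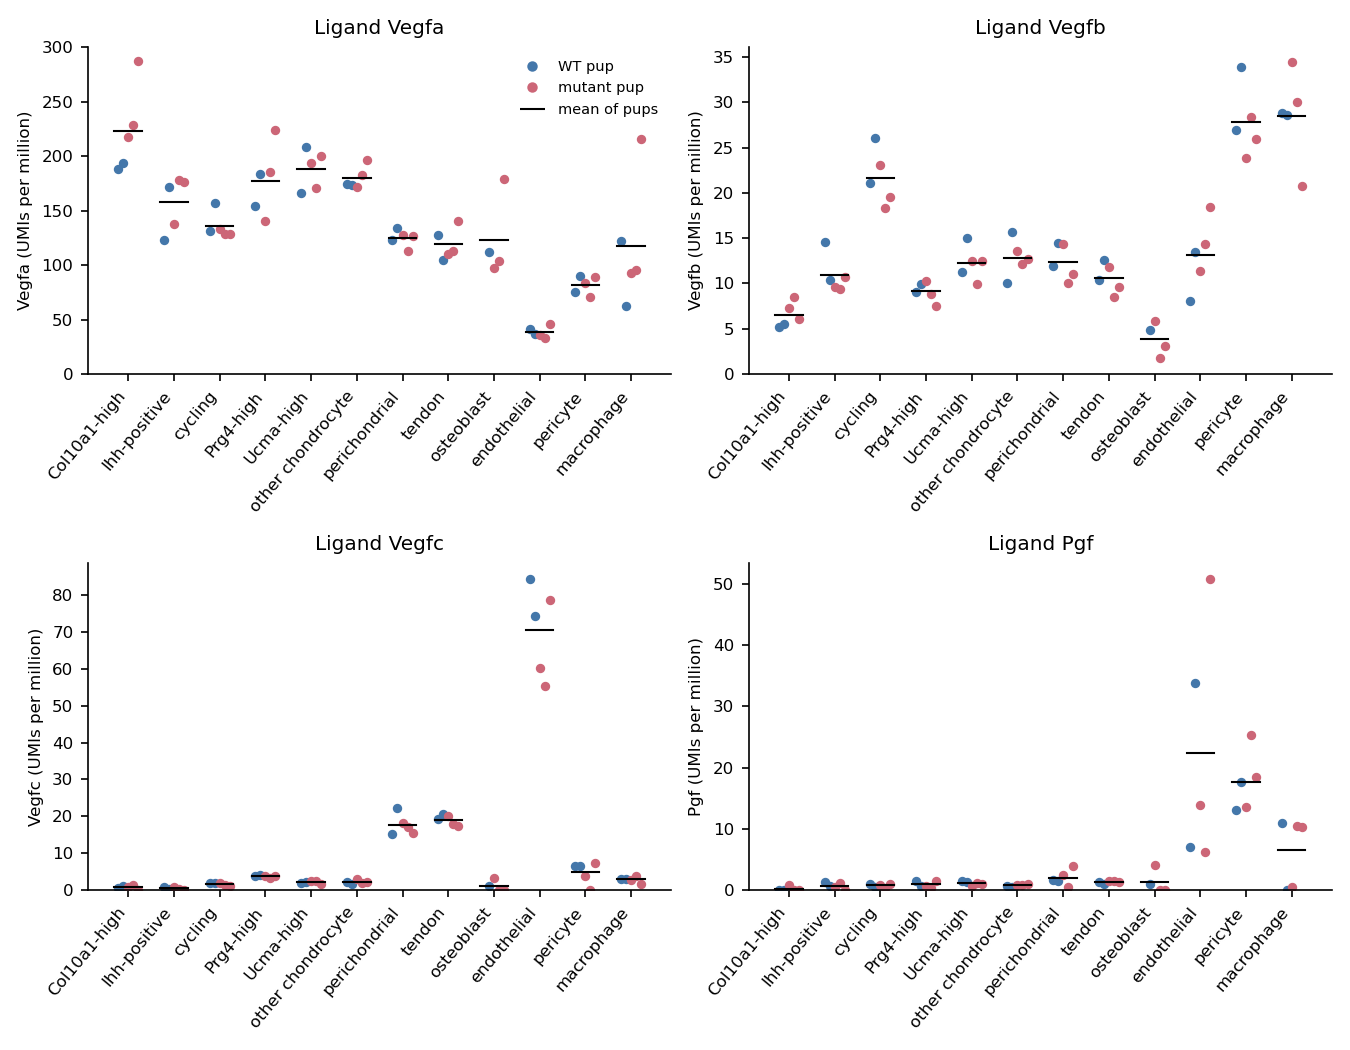
Ligand levels by cell class, in CPM on the y axis, with a point for each pup with at least 20 cells of the class (WT blue, mutant red) and a bar at the mean of the pups. Among the classes plotted, the mean of Vegfa is highest in Col10a1-high chondrocytes (188 to 287) and lowest in endothelial cells (32.8 to 46.2), while Vegfc and Pgf are highest in endothelial cells on the mean. For Pgf this rests on the few endothelial cells with the lymphatic factor Prox1, described below.

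Within a pup, Col10a1-high cells had more Vegfa than Ucma-high cells in 4 of 5 pups, and the exception was pup 2, with 194 against 208 CPM. The mean difference over the 5 pups was 0.23 ± 0.24 (SD) in log2(CPM + 5). It did not pass there (exact sign-flip permutation test, 2-sided, p = 0.125, adjusted p = 0.39). Fitted over all genes with pup as a term, the difference was 0.23 on the log2 scale (SE 0.07, adjusted p = 0.0087, edgeR quasi-likelihood test with Benjamini-Hochberg adjustment). In this comparison 9205 of 14912 genes, or 61.7%, passed, so passing was common. Of the 7 members with enough counts to be tested, 5 passed: Vegfa rose, and Vegfb (-0.89, SE 0.16), Vegfc (-1.34, SE 0.38), Pgf (-1.85, SE 0.74) and Nrp2 (-2.45, SE 0.12) fell, with adjusted p from 4.33e-11 to 0.041. Flt1 (0.02, SE 0.31) and Nrp1 (0.10, SE 0.16) did not pass. The Vegfa difference was 0.17 (adjusted p = 0.0625) without pup 5, and 0.08 (adjusted p = 0.45) when genes with low counts stayed in, which moved the median of all genes by -0.15.

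Shares of cells with a Vegfa UMI depend on how many UMIs a cell holds, so they are given at a fixed depth. After each cell was thinned to 3000 UMIs, 34.4% to 46.3% of Col10a1-high cells and 30.8% to 36.0% of Ucma-high cells had a Vegfa UMI, against 77.5% to 87.3% and 53.7% to 65.5% before thinning, when Col10a1-high cells held 22765 to 31970 UMIs in the median and Ucma-high cells 6911 to 11545. Thinned endothelial cells had 9.40% to 14.1%, which overlapped the 6.01% to 11.3% of erythroid cells in the 3 pups with at least 20 of them, at median depths of 4870 to 8830 and 4225 to 5952 UMIs, so the shares alone did not set endothelial cells apart from erythroid cells. By level, endothelial Vegfa was 19.3% to 26.4% of that in chondrocytes of the same pup, a larger fraction than that of Col2a1 (at most 2.01%) or Acan (at most 3.67%). Perichondrial cells, tendon cells and macrophages also held Vegfa, so these fractions cannot place endothelial Vegfa above RNA set free by other cells. Near the Col10a1 cut, 139 cells held less than 2 times the amount required and 192 cells below it held at least 50% of it.

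Splitting the Col10a1-high cells by late hypertrophy genes, a split chosen after the levels were seen, gave no common direction. Cells with at least 2 UMIs of the matrix genes Mmp13, Spp1 or Ibsp together had 169, 254, 271, 230 and 250 CPM of Vegfa in pups 1 to 5, and the remaining Col10a1-high cells 210, 174, 179, 227 and 305. The cells with late genes had more in pups 2, 3 and 4 and less in pups 1 and 5.

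Vegfa is a classical target of the hypoxia-inducible factors, and a list of 22 other hypoxia response genes was compared between the same 2 classes. Of all 14912 genes tested between these classes, 4407 were higher in Col10a1-high cells and 4798 lower. Of the 22, all tested, 16 were higher in Col10a1-high cells and 3 lower, with a median log2 difference of 0.62 beside -0.04 for all genes. Car12, a carbonic anhydrase, was higher by 2.46 (SE 0.06), Bnip3, a mitophagy receptor, by 1.66 (SE 0.06), and Slc2a1, the glucose transporter GLUT1, by 1.15 (SE 0.08), with adjusted p of 1.75e-08 or less. Vegfa thus rose less than these genes, which were among the strongest of the list. Pdk1, P4ha1, Ankrd37, Ndufa4l2, Kdm3a and Car9 had lower mean differences than Vegfa. Car9, a carbonic anhydrase, was at -1.64 in log2(CPM + 5), below 0 in every pup. Among 20 regulators of Vegfa transcription, 9 were higher and 7 lower in Col10a1-high cells (median 0.09). Mef2c rose by 3.07 (SE 0.21), Sp7 by 2.90 (SE 0.09), Foxa2 by 2.66 (SE 0.17) and Runx2 by 1.61 (SE 0.06), all transcription factors of hypertrophy or bone formation. Among 16 genes that release VEGF from matrix or inhibit angiogenesis, 15 were tested, 5 were higher and 8 lower. The collagenase Mmp13 rose by 4.03 (SE 0.87), and the inhibitors Thbs2 (-2.33, SE 0.10), Serpinf1 (-1.80, SE 0.10) and Tnmd (-1.74, SE 0.49) fell. Of the 17 dissociation response genes, which digestion itself can induce, 3 were higher and 9 lower, with Fos at -1.32 (SE 0.19).

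**Figure D2:**
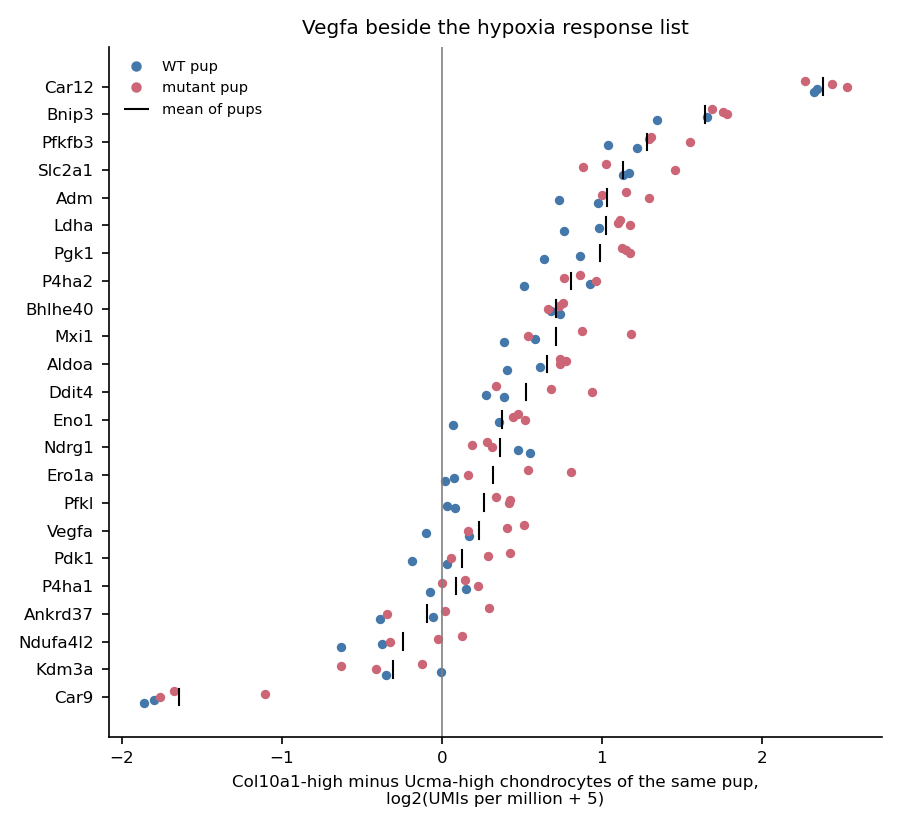
Difference between Col10a1-high and Ucma-high chondrocytes of the same pup for Vegfa and 22 hypoxia response genes, in log2(CPM + 5) on the x axis, with a point for each pup and a bar at the mean. Vegfa lies at 0.23 on the mean, with pup 2 below 0, while Car12 and Bnip3 are above 1 in every pup and Car9 is below 0 in every pup.

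Across 72 sums of a class in a pup, the 5 genes whose log levels followed Vegfa most closely among 11144 compared were Hk2 (Pearson r 0.79), Ptpn2 (0.72), Akt2 (0.71), Trpc4ap (0.70) and Gfpt1 (0.70). Hk2 encodes hexokinase 2, which starts glycolysis. The sums of a pup share a library, so these values are descriptions.

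The other ligands had their highest levels outside the cartilage. Vegfc was highest in endothelial cells, at 84.5, 74.4, 60.2, 55.4 and 78.6 CPM in pups 1 to 5. No other of the 11 classes reached these levels, and tendon and perichondrial cells had 17.5 to 20.6 and 15.2 to 22.1. Endothelial cells exceeded all chondrocytes by 4.65 on the log2 scale (SE 0.21, adjusted p = 7.78e-105). Among the 11 classes Vegfb was highest in macrophages (20.7 to 34.5) and pericytes (23.9 to 33.9), followed by cycling chondrocytes (18.3 to 26.1), and was 5.21 to 8.49 in Col10a1-high cells. Outside these classes, the few muscle cells held 60.6 (36.5 to 94.6) with all pups summed, and 0, 27.3, 99.7, 66.9 and 0 in pups 1 to 5. Vegfd was at most 0.84 in all chondrocytes of any pup and reached 6.79 in pericytes and 5.86 in perichondrial cells.

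Pgf was at 6.95, 33.8, 13.96, 6.16 and 50.9 CPM in the endothelial cells of pups 1 to 5 and at 13.1 to 25.3 in pericytes, and the pups of these 2 classes overlapped. It was at most 1.26 in all chondrocytes of a pup, and endothelial cells exceeded chondrocytes by 3.99 (SE 0.37, adjusted p = 1.93e-26). The genes most like it over the 72 sums were Angpt2 (r 0.81), Kitl (0.81), Esam (0.81), Apold1 (0.81) and Rbpms (0.80). Angpt2 encodes angiopoietin 2, a ligand of the endothelial receptor Tie2.

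The 3 receptor genes were highest in endothelial cells by a wide margin. Endothelial Flt1 was at 844, 733, 848, 1072 and 689 CPM in pups 1 to 5. Endothelial Kdr was at 771, 737, 988, 1014 and 939, and Flt4 at 82.2, 126, 103, 84.2 and 153. The next class was pericytes for Flt1 (32.8 to 96.4), macrophages for Kdr (1.99 to 13.1) and pericytes for Flt4 (0 to 3.71), and in none of the 3 did the pup ranges touch. The Flt1 level of pericytes stood beside 2.56 to 4.09 CPM of the endothelial marker Pecam1 in the same cells. All chondrocytes of a pup had 0.19 to 0.55 CPM of Kdr, 0.0192% to 0.0751% of the endothelial level, close to 0.0164% to 0.0678% for Cdh5 (VE-cadherin), an endothelial marker.

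**Figure D3:**
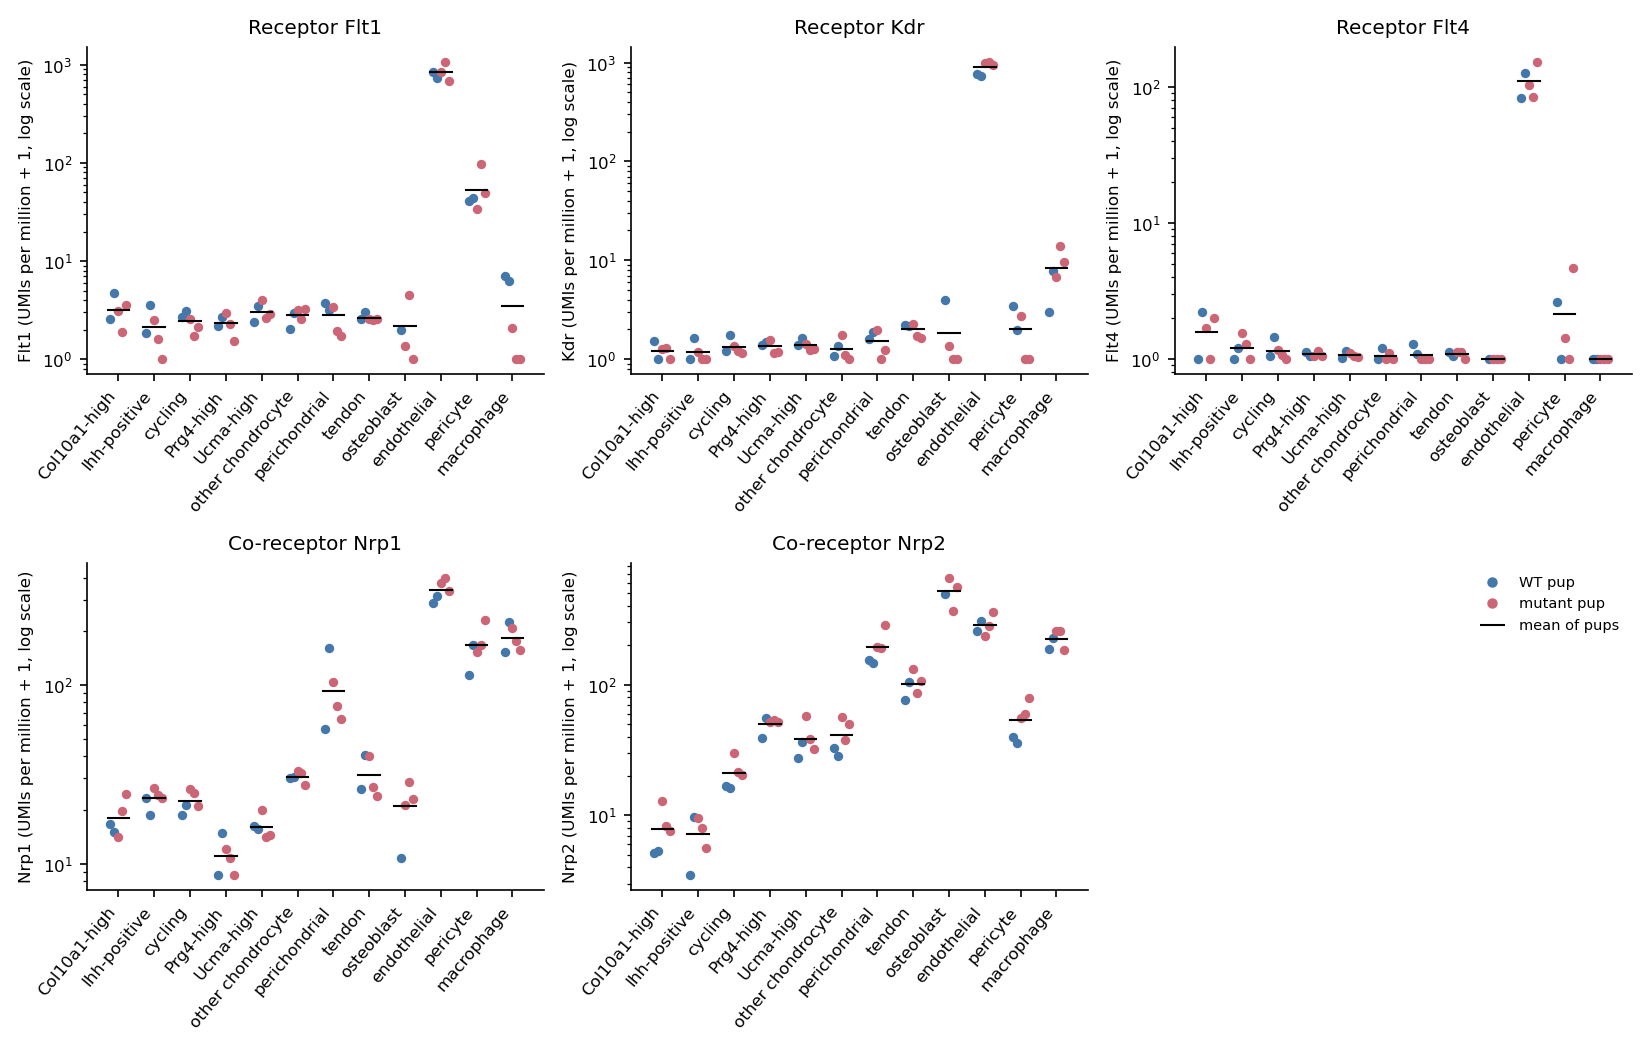
Receptor and co-receptor levels by cell class, as CPM plus 1 on a log axis, with a point for each pup with at least 20 cells of the class (WT blue, mutant red) and a bar at the mean of the pups. Kdr and Flt4 stand out in endothelial cells only (Kdr 737 to 1014), Flt1 is also present in pericytes (32.8 to 96.4), and Nrp1 and Nrp2 are spread over several classes.

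By share, 79.5% to 87.4% of endothelial cells thinned to 3000 UMIs had a Kdr UMI, against 0% to 1.95% of erythroid cells. For Flt1 the share was 69.5% to 88.3% in endothelial cells and 6.64% to 12.9% in pericytes, a vessel-wall cell that is known to be able to express VEGFR1, with 0% to 3.18% in erythroid cells. Between endothelial cells and all chondrocytes 8667 of 16326 genes, or 53.1%, passed, and 8 of the 10 members did. Higher in endothelial cells were Kdr by 10.95 (SE 0.15), Flt4 by 9.49 (SE 0.23), Flt1 by 8.57 (SE 0.13), Vegfc, Nrp1 by 3.97 (SE 0.11), Pgf and Nrp2 by 2.72 (SE 0.10), and lower was Vegfa by -2.53 (SE 0.13, adjusted p = 1.38e-83). In chondrocytes Flt4 was at 0.0353% to 0.187% and Flt1 at 0.124% to 0.307% of the endothelial level, overlapping the endothelial markers Emcn (0.0561% to 0.264%) and Plvap (0.164% to 0.259%), so the folds of all 3 receptors have a base close to background. Vegfb (-0.43, SE 0.24, adjusted p = 0.12) and Vegfd (-1.76, SE 1.24, adjusted p = 0.23) did not pass.

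The genes most like Kdr over the 72 sums were Fam167b (r 0.99), Gpihbp1 (0.98), Robo4 (0.98), Bcl6b (0.98) and Cdh5 (0.98). Those most like Flt1 were Emcn (0.97), Pcdh12 (0.96), Adgrf5 (0.95), Adcy4 (0.94) and Esam (0.94), and those most like Flt4 were Cldn5, Sox17, Robo4, Ushbp1 and Tie1, each at 0.99. Emcn, Esam, Robo4, Cdh5, Cldn5 and Tie1 were among the markers that set the class, so their place on these lists follows from it in part.

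The co-receptors were broader. Nrp1 was at 287, 315, 373, 398 and 338 CPM in the endothelial cells of pups 1 to 5, at 152 to 225 in macrophages, 113 to 230 in pericytes and 55.7 to 160 in perichondrial cells. Endothelial cells lay above the others of the 11 classes in every pup, and the ranges of macrophages and pericytes overlapped. All chondrocytes of a pup had 14.9 to 20.3, and the thinned share of Ucma-high cells with a Nrp1 UMI (3.13% to 4.79%) lay within that of erythroid cells (2.58% to 8.80%). By level, Nrp1 in all chondrocytes was 4.25% to 5.75% of that in endothelial cells of the same pup, a larger fraction than that of Pecam1 (0.0881% to 0.136%) or Cdh5. Perichondrial cells, macrophages and pericytes also held Nrp1, so these fractions cannot place chondrocyte Nrp1 above RNA set free by other cells. The closest gene to Nrp1 was listed only by its identifier ENSMUSG00000121092 (r 0.95), and whether its reads overlap those of Nrp1 was not tested. The next were Kitl (0.87), Vim (0.87), Stard9 (0.86) and Slfn5 (0.86).

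Nrp2 was at 364 to 654 CPM in osteoblasts of the 4 pups with at least 20 of them, above the endothelial mean, and at 1084 (exact 95% Poisson interval 995 to 1179) in the 30 osteoclasts of all pups summed. Endothelial cells had 257, 307, 233, 281 and 356 in pups 1 to 5, macrophages 181 to 255 and perichondrial cells 146 to 283, and these 3 ranges overlapped. Among chondrocytes Nrp2 was lowest in Ihh-positive cells, with 2.49 to 8.64, and in Col10a1-high cells, with 4.17 to 11.98, and these ranges overlapped, against 26.6 to 45.3 in all chondrocytes. The thinned share of Ucma-high cells with an Nrp2 UMI, 7.96% to 14.5%, overlapped the 4.19% to 11.5% of erythroid cells. Of 12 semaphorins and plexins, the other partners of the neuropilins, 7 were lower in Col10a1-high than in Ucma-high cells and 2 higher, led by Sema3d (2.11, SE 0.09). Beside them, 4798 of all 14912 genes were lower and 4407 higher.

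Receptors were often detected in the same endothelial cell, which follows in part from how common Kdr and Flt1 were. Kdr had a UMI in 88.9% to 94.7% of the endothelial cells of a pup, and Flt1 in 88.4% to 96.3% in pups 1 to 4. Flt1 was less common in pup 5, where 25 of 33 cells held it with Kdr and 2 without Kdr. Both had a UMI in 75.8% to 90.0%, and neither in 0% to 2.47%. Flt4 was found in 27.3% to 47.1%, and nearly all of those cells also held Kdr (27.3% to 45.5% of endothelial cells held both). At least 1 neuropilin was found in 87.9% to 95%. These shares are not thinned and rise with depth. Whether receptors share a cell more often than their separate shares give was not tested.

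Vessel subsets differed in the receptors they held. Endothelial cells with arterial markers only (72 cells), with sinusoidal or venous markers only (170 cells) and with Prox1, the lymphatic transcription factor, plus at least 1 other lymphatic marker (24 cells from 4 pups) were summed over pups, with exact 95% Poisson intervals that cover counting error only. The arterial and venous groups exclude each other but not Prox1-positive cells, so a Prox1-positive cell can count in 2 groups. Most cells with arterial markers also held venous markers and were left out of both groups. In pups 1 to 5, 13, 12, 23, 16 and 8 of 47, 58, 71, 39 and 21 cells with arterial markers stayed. Kdr was at 961 (874 to 1053), 884 (833 to 937) and 737 (635 to 851) CPM in the arterial, venous and Prox1-positive cells. By pup, Kdr in the Prox1-positive cells was at 1263, 482, 943 and 797 in pups 1, 2, 3 and 5. Without pup 2 the sums came to 955, 967 and 1051, so the order of the groups turned. Flt4 was at 48.4 (30.7 to 72.7), 90.7 (75.0 to 109) and 472 (391 to 564), and Nrp2 at 105 (78.2 to 139), 339 (308 to 373) and 622 (529 to 727), so both were lowest in the arterial group and highest in the Prox1-positive cells. By pup, Nrp2 in the Prox1-positive cells was at 684, 582, 67.4 and 869 CPM in pups 1, 2, 3 and 5, and pup 3, with 2 such cells and 1 UMI, lay below its arterial (132) and venous (322) cells. Between the arterial and venous groups, Nrp2 was lower in the arterial cells of 5 of 5 pups and Flt4 of 4 of 5, with pup 2 the exception (95.3 against 94.0). Flt1 went the other way, at 975 (888 to 1068), 780 (732 to 830) and 131 (90.0 to 184), and it was higher in the arterial than in the venous cells of 4 of 5 pups, with pup 4 the exception (871 against 1210). In the Prox1-positive cells Flt1 was uneven, at 298, 50.3, 606 and 0 CPM in pups 1, 2, 3 and 5, and their sum came to 81.9 without pup 1 and 230 without pup 2, below the other groups in both cases. Vegfc was at 139 (108 to 177) in the arterial group, 46.9 (35.8 to 60.4) in the venous and 3.96 (0.10 to 22.1) in the Prox1-positive cells, and it was higher in the arterial than in the venous cells of 5 of 5 pups. Pgf was at 4.21 (0.51 to 15.2), 19.5 (12.7 to 28.9) and 151 (107 to 207), and the 2 Pgf UMIs of the arterial group were both from pup 2. The arterial and venous groups were also summed with the cells holding both marker sets counted in each, leaving out 1 pup at a time. Flt4 was then at 107 to 123 and 110 to 122 CPM, so it did not separate these wider groups. Nrp2 stayed apart (225 to 261 and 296 to 324), and Flt1 overlapped (843 to 895 and 772 to 868).

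**Figure D4:**
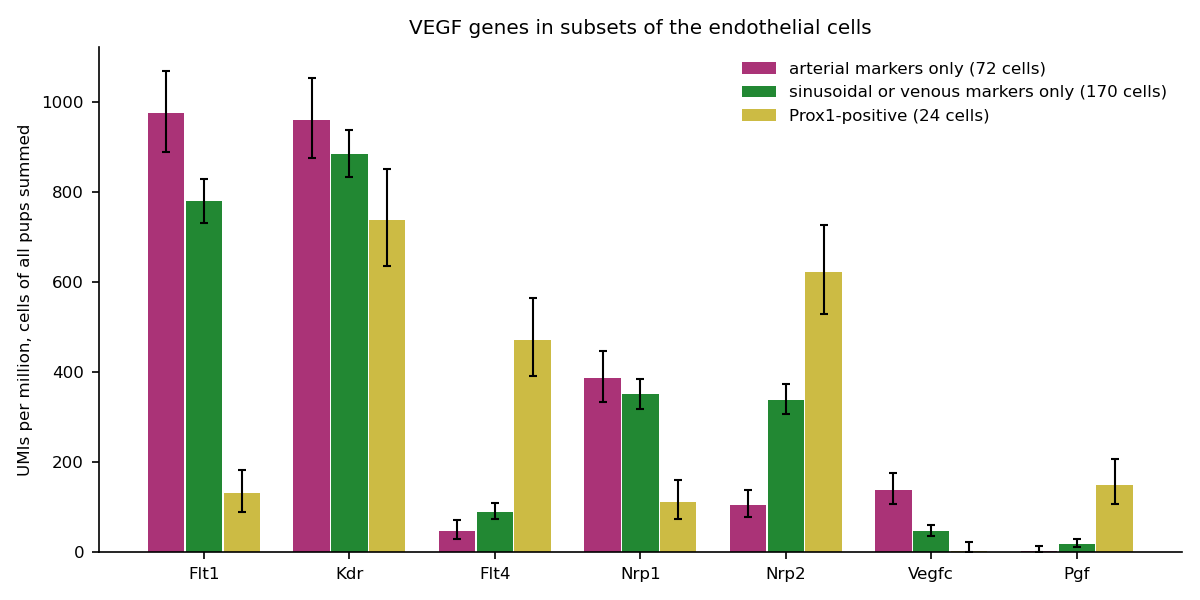
CPM of 7 members in 3 groups of endothelial cells set by marker genes, with the cells of all pups summed and error bars giving exact 95% Poisson intervals of the counts. On these sums Flt4, Nrp2 and Pgf are highest and Flt1, Nrp1 and Vegfc lowest in the 24 Prox1-positive cells, while Kdr is high in all 3 groups. In pup 3, with 2 Prox1-positive cells, Nrp1 was highest in them (472 against 390 arterial and 360 venous).

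The number of Prox1-positive cells was 5, 12, 2, 0 and 5 in pups 1 to 5, so they made up 5.32%, 9.92%, 1.25%, 0% and 15.2% of the endothelial cells. Without them, a setting chosen after the levels were seen, endothelial Flt4 was at 55.8, 78.6, 102, 84.2 and 57.2 CPM and Pgf at 3.72, 14.4, 12.4, 6.16 and 17.2. Each of these Pgf values lay below the pericyte mean of 17.6, so endothelial cells no longer had the highest mean Pgf. Pup 5, which had the highest Flt4 and Pgf of all pups with these cells included, had 33 endothelial cells in all.

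Genes that act with the receptors were read in the same comparison of endothelial cells with chondrocytes. Of all 16326 genes tested there, 3601 were higher in endothelial cells and 5066 lower. Of 20 endothelial response genes, known to change when VEGF acts on vessels or at the vessel front, 14 were higher and 3 lower than in chondrocytes, with a median log2 difference of 5.12 beside -0.25 for all genes. The apelin receptor Aplnr was higher by 11.38 (SE 0.16), the Notch ligand Dll4 by 10.20 (SE 0.17) and the Notch target Nrarp by 8.45 (SE 0.37). Plvap, also on the list, was a marker that set the class. Of 6 angiopoietin axis genes, 5 were tested and 4 were higher, among them the receptor Tek (Tie2) by 8.43 (SE 0.16) and Tie1, itself a marker that set the class. Of 30 genes downstream of the receptors, 29 were tested, 15 were higher and 8 lower. Ptprb, a phosphatase of VEGFR2 and Tie2, was higher by 9.66 (SE 0.13) and the nitric oxide synthase Nos3 by 5.60 (SE 0.17). The plexin Plxnd1 was higher by 6.41 (SE 0.12) and Sema3g by 6.55 (SE 0.15). On the other side, 16 of the 22 hypoxia response genes and 15 of the 20 regulators of Vegfa transcription were lower in endothelial cells. The oxygen-regulated factor Epas1 (HIF-2α) was higher by 5.23 (SE 0.11), and the cartilage inhibitor of angiogenesis Cnmd (chondromodulin) was lower by -6.16 (SE 0.12).

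Genotype was compared next, 2 WT against 3 mutant pups. Endothelial cells made up 0.622% and 0.731% of the kept cells in the WT pups and 0.836%, 0.453% and 0.239% in the mutant pups. The mutant range contained the WT values (exact permutation test, 2-sided, p = 0.5, with 0.1 the smallest possible), and whether dissociation set these shares was not tested.

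In all chondrocytes, Vegfa was at 158 and 189 CPM in WT and 171, 170 and 196 in mutant pups, which overlap. No gene passed among 19135 (0%, edgeR, with 1155 at an unadjusted p under 0.05, and 33 genes passed in DESeq2), so none of the 10 members did. Nrp2 was the member with the smallest p, at 26.6 and 31.8 in WT and 45.3, 34.4 and 33.7 in mutants, a log2 difference of 0.44 (SE 0.12, adjusted p = 0.80), and Kdr, near background in these cells, was at -0.53 (SE 0.42, adjusted p = 0.83). With pups 1, 2 and 5 only, the Nrp2 difference was 0.28. Nrp2 and Vegfd were the 2 of 10 members whose pups did not overlap between genotypes, beside 22.9% of all genes. Vegfd lies on the X chromosome, and its log2 difference was -0.37 in all pups and -0.42 with pups 1, 2 and 5 only. The dissociation response list separated the genotypes as well, with 1.88% and 1.87% of the UMIs in WT and 1.31%, 1.45% and 1.78% in mutants, and its part in these differences was not tested.

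In Col10a1-high chondrocytes, all 3 mutants lay above both WT pups for Vegfa, with 188 and 194 CPM in WT and 217, 228 and 287 in mutants. The difference was 0.35 on the log2 scale (SE 0.14, unadjusted p = 0.035, adjusted p = 0.999), and it did not pass. No gene passed among 10885 (0%, edgeR, with 399 at an unadjusted p under 0.05, and 1 gene passed in DESeq2). Of the 4 members with enough counts, Vegfa, Vegfb and Nrp2 did not overlap between genotypes, beside 19.8% of all genes. The pericyte markers in these cells did not overlap either, with 0.000261% and 0.00117% of the UMIs in WT and 0.00121%, 0.00155% and 0.0049% in mutants. Macrophage markers were also higher in all mutants, with 0.000469% and 0.000515% in WT and 0.000571%, 0.000556% and 0.000715% in mutants. Hemoglobin was lower in all mutants, with 0.0013% and 0.0797% in WT and 0.000933%, 0.000556% and 0.000357% in mutants. The part of RNA from these other cells in the member differences was not tested. Nrp2 was at 4.17 and 4.33 in WT and 11.98, 7.32 and 6.64 in mutants (1.08, SE 0.37, adjusted p = 0.999), and Vegfb at 5.21 and 5.56 against 7.24, 8.49 and 6.13 (0.44, SE 0.32). Within the split by late genes the genotypes overlapped, with 169 and 254 in WT and 271, 230 and 250 in mutants in cells with late genes, and 210 and 174 against 179, 227 and 305 in the remaining cells. In cycling chondrocytes Vegfa was at 132 and 157 in WT and 133, 128 and 129 in mutants, which also overlapped. The paper reports lower Vegfa in part of its proliferating chondrocytes, among which it counts prehypertrophic cells. Its clusters differ from the marker classes used here, and the clusters were not rebuilt. Neither cycling nor Ihh-positive (prehypertrophic-like) cells were tested between genotypes on their own here. With pups 1, 2 and 5 only, the Vegfa difference was 0.59 (SE 0.18, adjusted p = 0.84), that of Nrp2 0.64 and that of Vegfb 0.18. Without pup 5 the Vegfa difference was 0.21, the lowest of 11 alternatives, and without pup 3 that of Nrp2 was 0.72. The thinned share of Col10a1-high cells with a Vegfa UMI was 35.5% ± 1.51 (SD, n = 2) in WT and 40.4% ± 5.58 (SD, n = 3) in mutants, which overlapped (exact permutation test, 2-sided, p = 0.4). Thinning left out 0 of these cells in each WT pup and 6, 2 and 1 in mutant pups 3, 4 and 5.

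The hypoxia response list was also mostly above 0 in the mutants' Col10a1-high cells, with 19 of 22 genes higher on the estimate and a median of 0.13 beside 0.00 for all genes, but none passed. Summed, it took 0.737% and 0.738% of the UMIs in WT and 0.760%, 0.805% and 0.838% in mutants. In all chondrocytes the list went the other way without overlap, with 0.514% and 0.523% in WT and 0.492%, 0.511% and 0.487% in mutants. In Ucma-high cells the genotypes overlapped, with 0.490% and 0.428% in WT and 0.394%, 0.434% and 0.448% in mutants. The genotype effect in Col10a1-high cells minus that in Ucma-high cells was 0.27 for Vegfa (SE 0.14, unadjusted p = 0.055, adjusted p = 1). It was 0.13 without pup 2, 0.16 without pup 5 and 0.15 without the upper limit on genes per cell. In that comparison 5 of 16764 genes passed (0.0298%), none of them a member. Nfatc1, a transcription factor downstream of calcium and VEGFR2, was the only gene of the lists among them, at -0.68 (SE 0.13, adjusted p = 0.046). It was at 348 and 402 CPM in the Col10a1-high cells of WT pups and 326, 253 and 279 in mutants, and at 243 to 297 and 287 to 334 in Ucma-high cells. Its call was lost without pup 4 (adjusted p = 0.21), without pup 5 (0.17), without the upper limit on genes per cell (0.23) and with stricter class cuts (0.057).

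In endothelial cells, Kdr was higher in all 3 mutants (988, 1014 and 939) than in both WT pups (771 and 737). The difference was 0.40 on the log2 scale (SE 0.15, unadjusted p = 0.014, adjusted p = 0.55), and it did not pass. Nrp1 did not overlap either, with 287 and 315 in WT and 373, 398 and 338 in mutants (0.32, SE 0.16, adjusted p = 0.74). These were 2 of the 9 members tested, beside 22.3% of all genes. The 10 markers that set the endothelial class did not overlap either, taking together 0.732% and 0.756% of the UMIs in WT and 0.871%, 0.880% and 0.792% in mutants, and their part in the Kdr and Nrp1 differences was not tested. Flt1 (0.17, SE 0.17), Flt4 (0.03, SE 0.23), Nrp2 (0.01, SE 0.18) and Vegfc (-0.33, SE 0.22) overlapped between genotypes. The thinned share of cells with a Kdr UMI was 81.4% ± 2.71 (SD, n = 2) in WT and 83.2% ± 3.67 (SD, n = 3) in mutants (exact permutation test, 2-sided, p = 0.7). Thinned to 2000 UMIs it was 71.9% ± 2.64 (SD, n = 2) and 76.6% ± 2.72 (SD, n = 3), a difference of 4.69 points without overlap (exact permutation test, 2-sided, p = 0.1, the smallest possible). With pups 1, 2 and 5 only, the Kdr difference was 0.29 (SE 0.18, adjusted p = 0.59), that of Nrp1 0.13 (SE 0.21, adjusted p = 0.88) and that of Vegfc -0.04. Without the Prox1-positive cells Kdr was at 737 and 771 CPM in WT and 988, 1014 and 972 in mutants, and Nrp1 at 299 and 345 against 371, 398 and 406, and neither overlapped.

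Of 8525 genes tested in endothelial cells, 18 passed (0.211%), 12 higher and 6 lower in mutants, and 2 of them were on the list of 20 endothelial response genes. The list was chosen with earlier results of these data known, so this count is a description only. Apln, the peptide ligand apelin made by endothelial cells at the vessel front, was at 75.3 and 87.9 CPM in WT and 179, 172 and 236 in mutants. It rose by 1.23 (SE 0.19, adjusted p = 0.0044). Esm1 (endocan), a secreted proteoglycan that VEGF is known to induce, was at 88.0 and 69.3 in WT and 140, 209 and 287 in mutants and rose by 1.35 (SE 0.25, adjusted p = 0.036). All mutants lay above both WT pups for both genes. With pups 1, 2 and 5 only, Apln rose by 1.49 and Esm1 by 1.85. This setting leaves pup 5 as the only mutant, so the spread among mutants was not measured. Without pup 4 neither passed (adjusted p = 0.12 for Apln and 0.37 for Esm1), and no gene did in that fit. Esm1 also missed the threshold without pup 2 (0.061) and without scaling of the libraries (0.060).

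**Figure D5:**
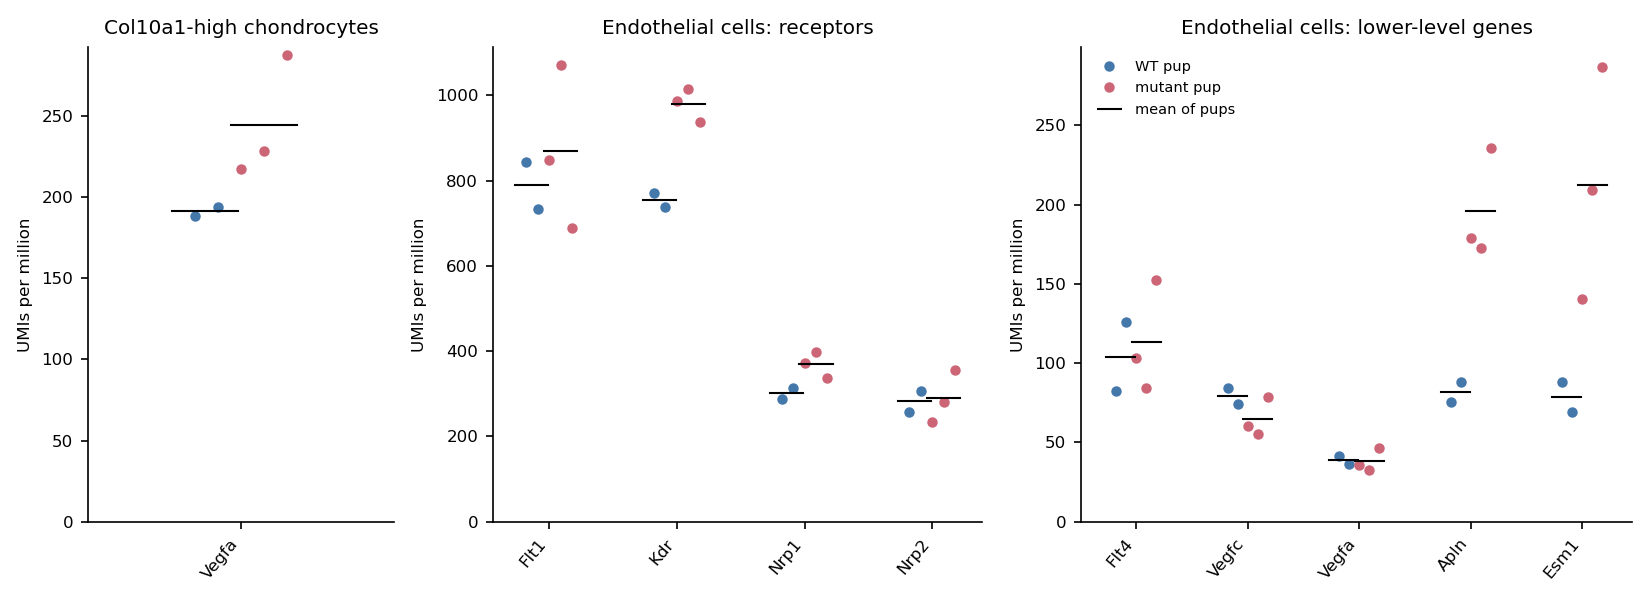
CPM by pup and genotype (WT blue, mutant red, bar at the group mean) of Vegfa in Col10a1-high chondrocytes and of receptors, ligands, Apln and Esm1 in endothelial cells. Mutant pups lie above both WT pups for Vegfa in Col10a1-high cells and for Kdr, Nrp1, Apln and Esm1 in endothelial cells, and only Apln and Esm1 passed the test over all genes.

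Apln and Esm1 were also markers of the front-of-vessel (tip) subset, and the share of endothelial cells with at least 2 of 6 such markers was 55.3% and 60.3% in WT and 53.8%, 59.3% and 63.6% in mutants, which overlapped. Of the whole list of 20 endothelial response genes, 15 were higher on the estimate, with a median of 0.27 beside 0.00 for all genes. The dissociation response list had a median of 0.19, with 13 of 17 genes above 0 and none passing, and took 1.78% and 1.49% of endothelial UMIs in WT and 1.71%, 2.00% and 1.90% in mutants. Its part in the Apln and Esm1 result was not tested. No gene of the other lists passed in endothelial cells, and the medians were 0.02 for the 28 tested genes downstream of the receptors, 0.07 for the hypoxia response and -0.13 for semaphorins and plexins.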

How the data were processed

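Single cells of 5 pups were profiled on the BD Rhapsody HT Express system. Per the labels and the paper's methods, the authors deposited unnormalised UMI counts per gene and cell from the platform's own analysis pipeline, aligned to mm10 (GRCm38). Gene positions and sequences were taken from GENCODE vM21 and RefSeq on that build. Cells with under 200 or over 6000 genes or over 10% mitochondrial UMIs were removed, after the study's filter. Classes were cut on markers: chondrocytes by Col2a1 of at least 20000 CPM and 3 of 7 partner genes, Col10a1-high by at least 5 UMIs and 1000 CPM, endothelial cells by 4 of 10 genes. No doublet caller was run, and cells meeting the rules of more than 1 class were set aside. UMIs were summed per pup and class, and the sums were tested with edgeR 4.0.16 (TMM, filterByExpr, robust quasi-likelihood fit, threshold 0.05) and, as an alternative, DESeq2 1.42.0 (R 4.3.3). Class comparisons had pup as a term. Each cell was also thinned to 3000 UMIs, leaving out shallower cells. The fits were tested on simulated data. Alternatives were DESeq2, no filter on low counts, no upper gene limit, stricter class cuts, no TMM, pups 1, 2 and 5 only, other thinning depths and each pup left out. The split by late genes and the removal of Prox1-positive cells were added after seeing the data. The named genes were all 10 members, at most 5 genes of each pathway list past the threshold with at least 20 CPM, and the 5 genes most like 6 of the members. Members, lists and rules were chosen with earlier results of these data known. The labels do not say more about replicates than that the pups are separate samples. With 2 and 3 pups an exact test cannot go below 0.1. Intervals cover counting error only.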

Additional observations from a re-analysis of the deposited data

How the results depend on the processing

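Alternatives were computed for the members above a floor of 5 CPM in a comparison, which in chondrocytes were Vegfa, Vegfb, Nrp1 and Nrp2 and in endothelial cells all but Vegfd. None of these changed its call between genotypes under the alternatives run, and Apln and Esm1 are described with their results. Counts of calls moved with settings. Between genotypes, all chondrocytes gave 33 calls with DESeq2 and 3 in pups 1, 2 and 5, and 0 to 9 with a pup left out (9 without pup 2, 6 without pup 5). Col10a1-high cells gave 1 with DESeq2, 20 with no filter on low counts, 2 in pups 1, 2 and 5, and 0 to 5 with a pup left out (4 without pup 1, 2 without pup 3, 5 without pup 5). Endothelial cells gave 8 with DESeq2, 67 with no filter, 30 with stricter class cuts, 45 in pups 1, 2 and 5, and 0 (without pup 4) to 67 (without pup 5). The genotype effect in Col10a1-high minus that in Ucma-high cells gave 3 calls with DESeq2, 41 with no filter, 1 with no upper gene limit, 1 with stricter cuts, and 1 (without pup 5) to 93 (without pup 2), with 39 without pup 1 and 37 without pup 3. A pup alone in its group is assumed to vary like the other group. Why they moved was not tested. Counts between classes stayed within 1.5 times.

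The shares turned sign without thinning, to -1.90 percentage points for Vegfa in Col10a1-high cells and -1.63 for Kdr in endothelial cells, where the thinned Kdr difference of 1.83 ranged from -0.26 to 3.74 with a pup left out. Median UMIs were 29861 and 31970 in the WT and 22765 to 26590 in the mutant Col10a1-high cells.

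The genotype difference (log2) turned sign for some members. In endothelial cells Vegfa, at -0.06, was 0.0807 with stricter cuts, 0.22 in pups 1, 2 and 5, and -0.16 to 0.0282 with a pup left out. Vegfb, at 0.28, was -0.0921 with stricter cuts and -0.0044 to 0.75 with a pup left out. Pgf, at -0.31, was 0.14 with DESeq2, 1.18 in pups 1, 2 and 5, and -0.95 to 1.37 with a pup left out. Flt1, at 0.17, was -0.22 in pups 1, 2 and 5 and -0.0121 to 0.30 with a pup left out, and Flt4, at 0.03, was 0.50 in pups 1, 2 and 5 and -0.22 to 0.40 with a pup left out. Nrp2, at 0.01, was -0.0083 with no filter, -0.0055 with stricter cuts, -0.0061 with no TMM, 0.30 in pups 1, 2 and 5, and -0.13 to 0.16 with a pup left out. Nrp1, at 0.11, was -0.12 in all chondrocytes of pups 1, 2 and 5. Between Col10a1-high and Ucma-high cells Nrp1 was -0.0544 with no filter, -0.11 with stricter cuts and -0.0387 to 0.30 with a pup left out, and its genotype effect between these classes was -0.0434 with stricter cuts and -0.14 to 0.55 with a pup left out. Vegfb passed between endothelial cells and chondrocytes with stricter cuts only (-0.56, adjusted p = 0.046).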
